A study of Mus musculus with 9 samples.

Results

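The 8 genes described here encode the parts of the MHC class I presentation pathway: the heavy chains H2-K1 and H2-D1, the light chain B2m, the peptide transporter Tap1 and Tap2, the loading factor Tapbp, the trimming peptidase Erap1 and the transcriptional activator Nlrc5. They were taken by symbol, and all 8 were found among the 22092 genes of the count files. The study compared ribosome-bound mRNAs of perivascular astrocyte endfeet with those of whole astrocytes by TRAP, in which ribosomes carrying a GFP-tagged L10a protein are immunoprecipitated and their mRNAs sequenced. All mice were Aldh1L1 JD130 animals with the tg:Aldh1L1-L10aGFP transgene, a bacterial artificial chromosome in which the astrocyte promoter of Aldh1l1 drives the tagged protein, and all were 2 months old. Whole astrocyte TRAP (n = 3 libraries) started from 1 whole brain per library with the choroid plexus removed. Endfeet TRAP (n = 6) started from mechanically purified brain vessels, to which endfeet remain attached, pooled from 8 mice per library. No treatment was given to the mice. The buffers of the vessel isolation held cycloheximide, and vessels were homogenized with more strokes than whole brains. This handling cannot be told apart from the difference between groups. No group without the transgene was analysed here, so RNA that was carried along without a tagged ribosome was not measured separately.

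In the class I pathway, proteasomes cut cytosolic proteins into peptides, which the Tap1-Tap2 transporter moves into the endoplasmic reticulum. There Erap1 trims them and Tapbp (tapasin) holds the empty heavy chain near the transporter until a peptide is bound, and the heavy chain leaves for the cell surface only in a complex with B2m. Nlrc5, together with the RFX complex and NF-Y, activates these genes from their promoters, and interferons raise them through Irf1 among other factors. In the brain, endothelial cells are known for class I at their surface, and resting neurons and astrocytes for low levels.

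The promoter bases of the genes that encode both parts of the class I molecule are shown because they carry the elements through which Nlrc5 and interferon are known to act. They come from RefSeq on GRCm38.p6, 5′ to 3′ on the strand of the gene, with capitals marking matches to the letters searched. RefSeq windows were found for 6 of the 8 genes, and none was matched for Tap2 and Nlrc5.
B2m, chr2:122147487-122147685, plus strand: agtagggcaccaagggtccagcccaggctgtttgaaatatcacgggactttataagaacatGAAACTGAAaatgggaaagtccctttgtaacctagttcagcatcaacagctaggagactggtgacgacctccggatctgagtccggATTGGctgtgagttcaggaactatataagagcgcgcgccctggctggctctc
H2-K1, chr17:34000348-34000547, minus strand: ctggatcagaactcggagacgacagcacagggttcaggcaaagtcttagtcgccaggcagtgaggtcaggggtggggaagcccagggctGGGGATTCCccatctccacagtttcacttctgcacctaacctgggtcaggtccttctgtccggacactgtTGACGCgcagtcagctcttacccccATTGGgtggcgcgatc
H2-K1, from X2 to Y, chr17:34000359-34000388, minus strand: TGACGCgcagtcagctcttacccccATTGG
H2-D1, from X2 to Y, chr17:35262993-35263022, plus strand: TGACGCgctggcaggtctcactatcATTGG

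Searched on both strands of the 250 bases before each start, the letters GAAANNGAA, from the interferon-stimulated response element, were in 7.13% of all 32851 RefSeq promoter windows and in those of B2m and Erap1. The letters GGGNNTTCC, from an NF-kappaB site, were in 4.98% of windows and in those of H2-K1 and H2-D1. The letters TGACGC, from the X2 box, were in 6.12% of windows and again in those of H2-K1 and H2-D1, and ATTGG, the core of the Y box, was in 33.8% of windows and in those of B2m, H2-K1, H2-D1, Tap1 and Tapbp. Both heavy chain genes had these letters in the same arrangement, with 70 bases from the first base of the NF-kappaB letters to that of X2 and 25 bases from there to the Y box. Over the 100 bases from the NF-kappaB letters to the end of the Y box the 2 genes were identical at 89 positions, and over the last 30, printed above, at 23. These matches describe the letters only, and variants of them were not searched. A window without a match may therefore still hold an element of that kind. No binding was measured.

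The libraries differed in depth, with 35984144 to 43521208 counts assigned to genes in whole astrocyte TRAP and 2319495 to 13450588 in endfeet TRAP. The endfeet libraries also varied far more among themselves, with a common dispersion of 0.725 against 0.0141. Of 14427 genes tested, 34.6% passed an adjusted p of 0.05, 20.7% as higher and 13.9% as lower in endfeet TRAP, and the median log2 fold change was 0.10. The deposited libraries are numbered in 2 runs, A (endfeet libraries 1 to 3) and B (the other 6 libraries), and the meaning of these numbers is not given in the sources used here.

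All 8 class I genes were higher in endfeet TRAP and none was lower, with edgeR log2 fold changes from 2.35 for B2m to 5.04 for H2-D1 and a median of 3.61. This is to be read against the 20.7% of all tested genes called higher. Tap1, Tap2 and Nlrc5 had at most 30 counts in any whole astrocyte library. They passed the count filter of the test on their endfeet counts and could hardly be called lower. In all 8, every endfeet library lay above every whole astrocyte library, which held for 19.1% of all genes tested. Levels are given below as normalized counts, counts divided by the library's DESeq2 size factor. In these bulk libraries more cells of a type and more of an mRNA per cell cannot be told apart.

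H2-K1 and H2-D1 encode the classical heavy chains, which carry the peptide groove. H2-K1 (transcript ENSMUST00000114311, GRCm38 chr17:33996018-34000283, minus strand) had 259, 196 and 298 normalized counts in the whole astrocyte libraries and from 2746 to 4856, with a median of 3141, in the endfeet libraries. The groups were far apart, and the endfeet libraries stayed within 1.77 times of each other. The log2 fold change was 3.72 (SE 0.33, adjusted p = 3.5e-06), a 13.2-fold difference.

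H2-D1 (ENSMUST00000172785, chr17:35262730-35267499, plus strand) had 41.3, 63.5 and 77.4 normalized counts in whole astrocyte TRAP. In endfeet TRAP it ranged from 702 in library 1 to 4081 in library 6, with a median of 1862. The groups did not overlap, but the endfeet libraries spread over 5.82 times. Its estimate, 5.04 on the log2 scale (SE 0.57, adjusted p = 2.3e-05), was the highest of the 8 genes. Without endfeet library 6 the estimate was 4.76, and H2-D1 still passed the test.

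B2m (ENSMUST00000102476, chr2:122147686-122153083, plus strand), the light chain shared by all class I molecules, had 1822, 1776 and 1992 normalized counts in whole astrocyte TRAP. In the endfeet libraries it ranged from 6518 to 12277, with a median of 10035. B2m was thus already well detected in whole astrocyte TRAP, where its 3 libraries agreed to within 1.12 times. Its log2 fold change of 2.35 (SE 0.30, adjusted p = 6.6e-05), or 5.09-fold, was the lowest estimate of the 8.

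**Figure D1:**
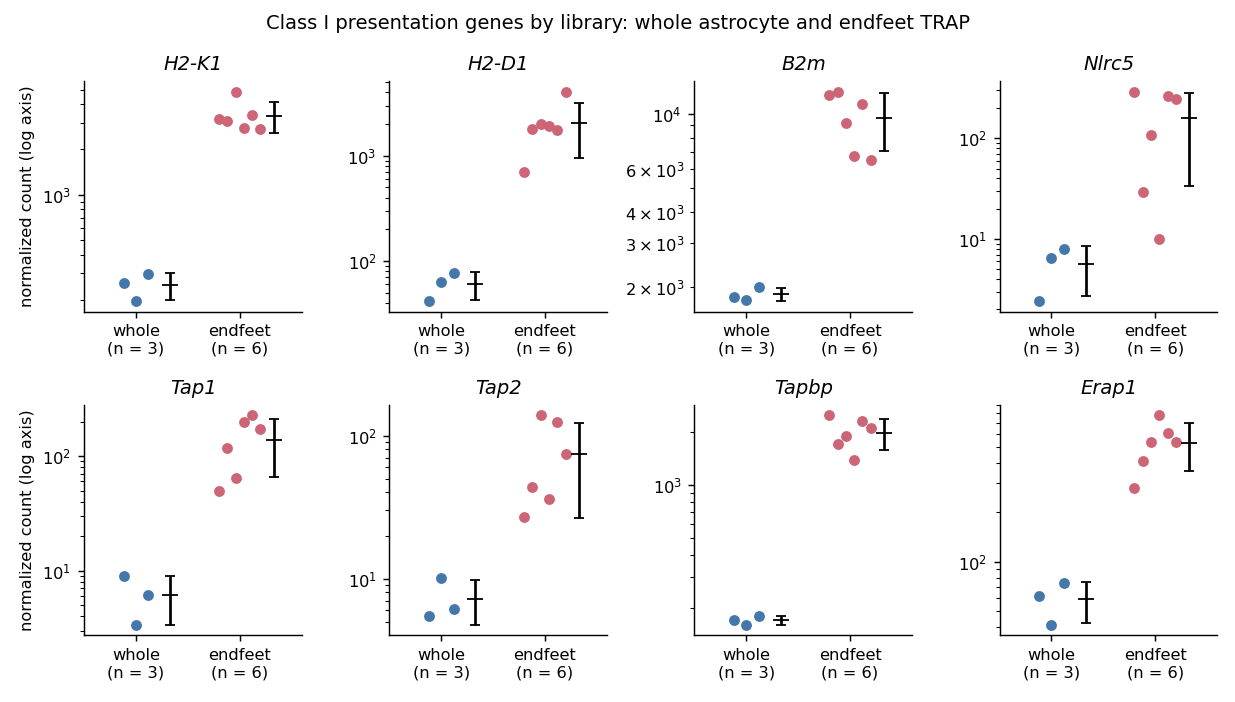
Normalized counts (counts divided by the DESeq2 size factor, log axis, a separate scale for each gene) of the 8 class I genes in each whole astrocyte (blue) and endfeet (red) TRAP library, with mean ± SD in black. In every panel all endfeet points lie above all whole astrocyte points, by the least for Nlrc5, where the lowest endfeet library has 10.1 and the highest whole astrocyte library 8.05.

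Tap1 and Tap2 form the transporter that carries peptides into the endoplasmic reticulum. Tap1 (ENSMUST00000041633, chr17:34187802-34197219, plus strand) had 8.96, 3.38 and 6.11 normalized counts in whole astrocyte TRAP, from 10 to 26 raw counts per library. In endfeet TRAP the lowest library had 49.1, the median was 145 and the highest had 227. The groups did not overlap, and the log2 fold change was 4.46 (SE 0.97, adjusted p = 0.0032).

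Tap2 (ENSMUST00000025197, chr17:34203527-34216321, plus strand) had 5.51, 10.1 and 6.11 normalized counts in whole astrocyte TRAP and from 27.0 to 139, with a median of 59.1, in endfeet TRAP. The groups did not overlap, but the counts were low, with 11 raw counts in endfeet library 1 and 12 in library 6. The log2 fold change of 3.33 (SE 1.004) passed with an adjusted p of 0.021, the highest of the 8. It did not pass without whole astrocyte library 1 (0.112), 2 (0.0828) or 3 (0.113), and with all libraries thinned to the smallest total its estimate was 4.96.

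Tapbp and Erap1 act on the peptide side of the loading complex. Tapbp (ENSMUST00000025161, chr17:33919332-33929292, plus strand), which bridges the heavy chain to the transporter, had 172, 161 and 181 normalized counts in whole astrocyte TRAP. In endfeet TRAP it ranged from 1391 to 2483, with a median of 1986. This was among the most even of the 8 genes within each group, with coefficients of variation of 5.90% and 20.3%. Its log2 fold change was 3.51 (SE 0.33, adjusted p = 4.7e-06).

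Erap1 (ENSMUST00000169114, chr13:74639568-74693201, plus strand), the aminopeptidase that trims peptides to the length of the groove, had 61.7, 41.2 and 73.8 normalized counts in whole astrocyte TRAP. Its endfeet libraries had a lowest value of 282, a median of 536 and a highest value of 781. The lowest of them was still 3.82 times the highest whole astrocyte library, and the log2 fold change was 3.14 (SE 0.54, adjusted p = 0.00059).

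Nlrc5 (ENSMUST00000053085, chr8:94472763-94527272, plus strand), the activator that is recruited to class I promoters, was the least counted gene in whole astrocyte TRAP, with 2.41, 6.42 and 8.05 normalized counts. In endfeet TRAP it ranged from 10.1 in library 4 to 292 in library 1, with a median of 178, and endfeet library 2 had 29.3. Its endfeet libraries thus spread over 29.0 times, the widest of the 8 genes, and 2 of them were close to the whole astrocyte range. The log2 fold change was 4.75 (SE 1.25, adjusted p = 0.01), and it did not pass without whole astrocyte library 1 (0.0587) or 2 (0.0514).

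**Figure D2:**
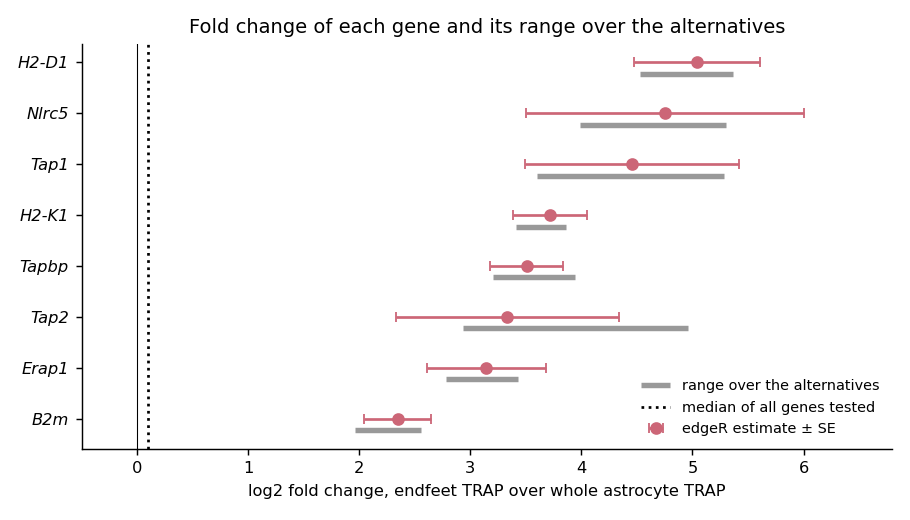
Log2 fold change of endfeet over whole astrocyte TRAP for each class I gene (red, edgeR estimate ± SE), with the range over the alternative analyses in grey and the median of all genes tested, 0.10, as a dotted line. Estimates run from 2.35 for B2m to 5.04 for H2-D1, and each grey range stays above the dotted line.

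Within number run B alone, with 3 endfeet libraries against the 3 whole astrocyte libraries, all 8 genes were again called higher, with log2 fold changes from 1.96 for B2m to 5.24 for H2-D1. Tap2 had 3.27 and Nlrc5 4.74 there. Run A holds endfeet libraries only and gives no comparison of its own.

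Levels of different genes were compared per length, as mean normalized counts per kilobase of transcript. This treats reads as spread over the whole transcript. For H2-K1 a transcript from 59.3% of the span onward had 96.8% (whole astrocyte) and 99.0% (endfeet) of the chosen transcript's counts. For Nlrc5 one from 96.0% had 67.3% and 60.6%. The chosen H2-K1 transcript (1874 bases) is annotated as a retained intron, and coding ones of 1570 and 1619 bases had nearly the same counts. How coverage and transcript choice shape the order and ranks was not tested. In whole astrocyte TRAP, B2m stood far above the others with 2167 ± 132 (SD, n = 3), and H2-K1 followed with 134 ± 27.6. Tapbp (59.1 ± 3.49) came before H2-D1 (28.9 ± 8.66), the second heavy chain. Erap1 had 10.4 ± 2.92, and the lowest places were taken by Tap1 (2.35 ± 1.07), Tap2 (2.11 ± 0.73) and Nlrc5 (0.810 ± 0.42). Of the neighbours in this order only Tap1 and Tap2 had overlapping ranges. In endfeet TRAP, B2m was again first with 11143 ± 2933 per kilobase (SD, n = 6), followed by H2-K1 with 1782 ± 417. H2-D1 (974 ± 526) now came before Tapbp (682 ± 138). Erap1 had 93.2 ± 30.1 and Tap1 52.8 ± 27.9, and Nlrc5 (22.8 ± 18.0) and Tap2 (21.6 ± 13.9) came last. Here only B2m from H2-K1 and Tapbp from Erap1 were separated by their ranges. H2-D1 was below Tapbp in all 3 whole astrocyte libraries and above it in 5 of 6 endfeet libraries. Among the 14427 genes tested, B2m moved from rank 289 to rank 22 by level per length, H2-K1 from 5385 to 212 and H2-D1 from 9909 to 540.

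Ratios of counts within a library do not depend on how libraries are scaled, and they were compared by two-sided exact permutation tests over the 84 assignments of the 9 libraries to groups of 3 and 6, adjusted over 4 ratios. The smallest p this design can give is 0.0119. The H2-K1 count was 0.142, 0.110 and 0.150 times the B2m count in whole astrocyte TRAP and from 0.253 to 0.529 times in endfeet TRAP. All 6 endfeet libraries were above the whole astrocyte ones, and the log2 ratio was higher by 1.41 (exact permutation p = 0.0119, adjusted 0.0238). The H2-D1 count was 0.0228, 0.0358 and 0.0389 times that of B2m in whole astrocyte TRAP and from 0.0592 to 0.626 times in endfeet TRAP. Again all 6 endfeet libraries were above, with a log2 difference of 2.62 (exact permutation p = 0.0119, adjusted 0.0238). Thus the heavy chain counts rose relative to the light chain count. The B2m transcript is shorter (860 bases) than those of H2-K1 (1874) and H2-D1 (2102). Whether length or coverage along the transcripts takes part in these differences was not tested. Both ratios reached the smallest p possible. Without endfeet library 2, 4 or 5 they did not pass (adjusted exact permutation p = 0.0714). With any whole astrocyte library left out only 28 assignments remained, and the adjusted p was again 0.0714. That is the lowest value that 2 of the 4 ratios alone can reach there, so those leave-outs cannot show whether the differences hold.

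The 2 heavy chains did not keep a fixed proportion across libraries. The H2-K1 count was 6.24, 3.08 and 3.85 times that of H2-D1 in whole astrocyte TRAP and from 0.673 in endfeet library 6 to 4.52 in endfeet library 1. Of the endfeet libraries 5 were below all whole astrocyte libraries and library 1 lay within their range. The log2 ratio was lower by a mean difference of -1.22, which did not pass (exact permutation p = 0.0833, adjusted 0.111). Without endfeet library 1 the difference was -1.48 with an adjusted p of 0.0238.

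Tap1 and Tap2 encode partners in a single transporter. The Tap1 count was 1.61, 0.344 and 1 times that of Tap2 in whole astrocyte TRAP and from 0.463 in endfeet library 3 to 5.41 in endfeet library 4. The mean difference in log2 ratio was 1.22 and did not pass (exact permutation p = 0.179, adjusted 0.179). Without endfeet library 3 it was 1.63 with an adjusted p of 0.0357.

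**Figure D3:**
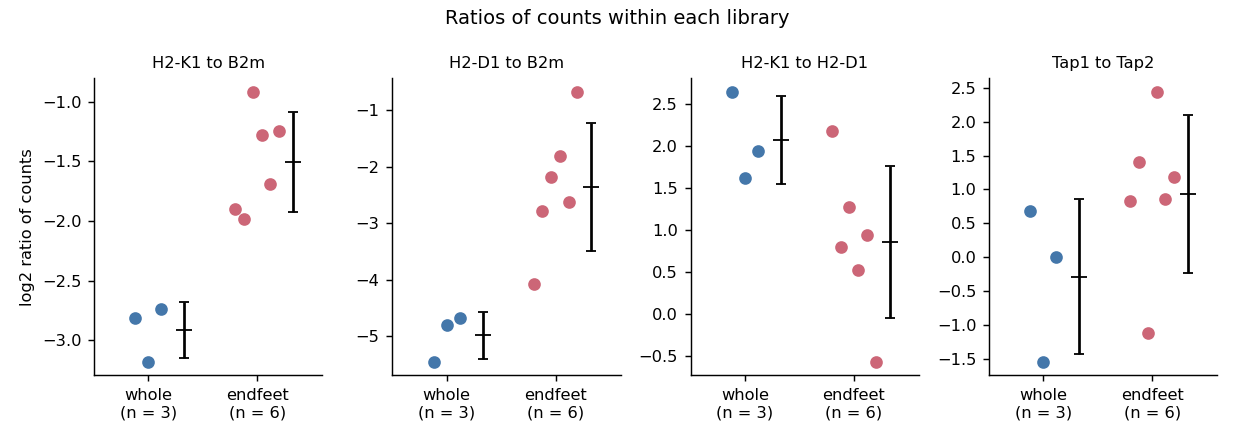
Log2 ratio of counts of 2 class I genes within each whole astrocyte (blue, n = 3) and endfeet (red, n = 6) TRAP library, with mean ± SD in black and a separate scale in each panel. Both heavy chains over B2m are higher in all endfeet libraries, by 1.41 and 2.62 on average, whereas H2-K1 over H2-D1 and Tap1 over Tap2 overlap between groups.

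Reads were counted for transcripts, reads that aligned more than once had been removed, and no strand setting of the counting is given in the sources used here. Of the windows of 50 bases in the chosen H2-K1 transcript, 8.11% also occur exactly in transcripts of other genes, most often in H2-D1, and for H2-D1 14.3% do, most often in H2-Q1. For these paralogs counts rest on the remaining windows. Erap1 overlaps Cast, a calpain inhibitor on the opposite strand, in 14.0% of its windows, and Cast also rose (log2 fold change 4.15, SE 0.64, adjusted p = 0.00027). Reads in the overlap cannot be told apart between the 2 genes. Tap2 shared 12.6% of its windows, mainly with the antisense Gm15821, whose mean was 0.523 normalized counts in whole astrocyte TRAP against 11.98 in endfeet TRAP. Tapbp shared 21.0%, the highest share of the 8, mainly with the antisense Gm19412. Tap1 shared 0.975%, and B2m and Nlrc5 shared none.

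Several short annotated transcripts of the class I genes show where along the gene the reads lay. A retained-intron transcript between 1.81% and 10.5% of the span of Tapbp had 23.96% as many counts as the chosen transcript in whole astrocyte TRAP but 1.02% in endfeet TRAP. The antisense gene Gm19412 spans the same bases, and the share was between 21.4% and 25.1% in each whole astrocyte library and at most 1.798% in any endfeet library. For H2-K1 a transcript over its first 68.5% had 4.53% as many counts as the chosen transcript in whole astrocyte TRAP against 1.48% in endfeet TRAP, while one from 59.3% of the span to near its end had 96.8% and 99.0%. Counts of H2-K1 therefore came almost entirely from its 3′ part in both groups. For Nlrc5, a transcript that starts at 96.0% of the span had 67.3% as many counts in whole astrocyte TRAP against 60.6% in endfeet TRAP, with a range over endfeet libraries from 33.1% to 100%. Whether differences in coverage along the genes take part in the fold changes was not tested.

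Markers of other cells of the vessel wall were also higher in endfeet TRAP, to be read against the 20.7% of all genes tested called higher. The summed CPM (counts scaled to the library total) of the 8 class I genes was 185 to 219 in whole astrocyte TRAP and 1088 to 1699 in endfeet TRAP. All 15 endothelial markers passed as higher, and their sum was 53.6 to 63.3 CPM in whole astrocyte TRAP against 3673 to 7430 CPM in endfeet TRAP. All 12 mural cell markers did so too (44.9 to 53.5 CPM against 3412 to 8550 CPM), as did all 10 fibroblast markers (44.6 to 69.3 CPM against 1884 to 2785 CPM). Of the markers of microglia and macrophages 10 of 14 passed as higher (25.6 to 31.5 CPM against 211 to 467 CPM). Of lymphocytes and granulocytes 5 of 7 tested of 15 did (6.24 to 9.70 CPM against 18.3 to 80.4 CPM). These 5, Ptprc, Cd2, Ms4a1, S100a8 and S100a9, had at most 7 counts in any whole astrocyte library. They passed the count filter of the test on their endfeet counts and could hardly be called lower, so this share carries little weight. Of antibody-secreting cells 6 of 7 tested of 8 found passed as higher (11.8 to 20.01 CPM against 802 to 5739 CPM). In whole astrocyte TRAP the endothelial marker Ly6c1 and the lymphocyte markers Cd3d, Cd2, Nkg7 and Ncr1 had 0 counts in every library, and in endfeet TRAP Cd3d and Ncr1 did.

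Markers of astrocytes were measured alongside. Their sum was 54319 to 56924 CPM in whole astrocyte TRAP and 15416 to 35963 CPM in endfeet TRAP, with 8 of 15 lower, 1 higher (Aqp4, the water channel of the endfoot membrane) and none at 0 in every library of a group. Hes5, a transcription factor, had 0 counts in endfeet library 6. The tagged ribosome's promoter gene Aldh1l1 was among those lower, with a log2 fold change of -2.38. Markers of neurons summed to 3821 to 4364 CPM and 1114 to 1999 CPM (3 of 10 lower) and those of oligodendrocytes to 888 to 906 CPM and 423 to 796 CPM (2 of 10 lower, 1 higher). Over all genes tested 13.9% were lower and 20.7% higher. The mRNAs encoded in mitochondria, which cytosolic ribosomes do not translate, summed to 27.8 to 53.6 CPM and 3301 to 7975 CPM, with 7 of 7 tested of 13 passing as higher. The part of vessel cells, immune cells and RNA not bound to tagged ribosomes in the class I difference was not tested.

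**Figure D4:**
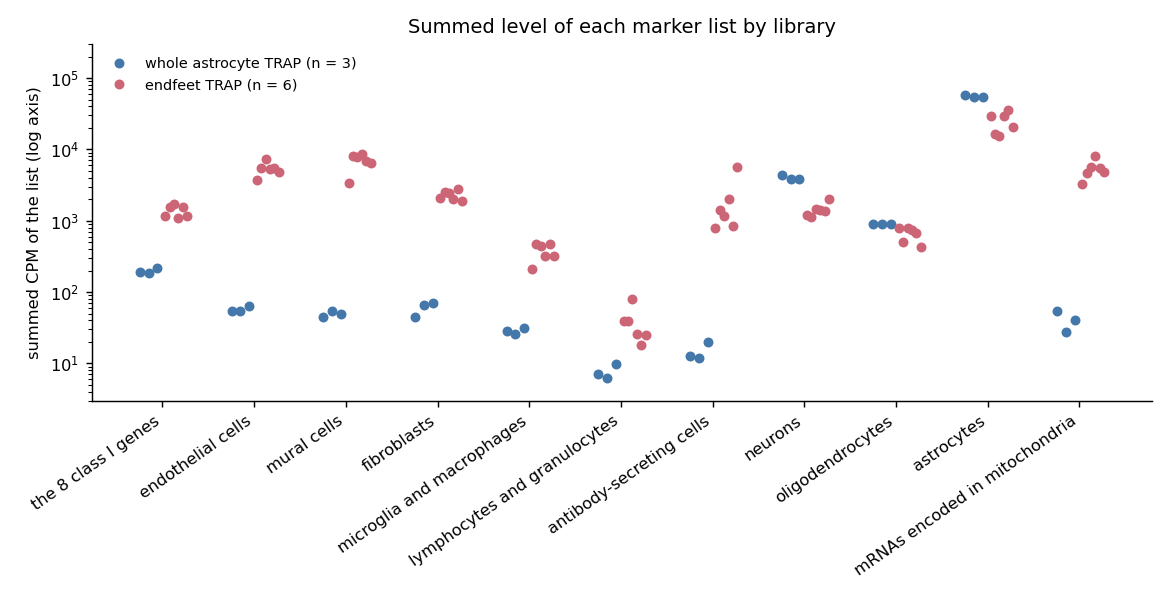
Summed CPM (log axis) of the 8 class I genes and of each marker list in each whole astrocyte (blue, n = 3) and endfeet (red, n = 6) TRAP library. The class I sum is 185 to 219 CPM against 1088 to 1699 CPM, the endothelial sum 53.6 to 63.3 CPM against 3673 to 7430 CPM, and the astrocyte sum lies lower in every endfeet library.

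Endfeet library 6, which had the highest H2-D1 level, also had the highest sum of antibody-secreting cell markers (5739 CPM) and the fewest counts. Most of that sum came from the transcription factor genes Irf4 (7160 counts) and Pou2af1 (4783). Jchain followed with 775 and Sdc1 had 19, and the immunoglobulin genes Igha, Ighm and Igkc of that list were not found. Endfeet library 3, which had the highest H2-K1 level, also had the highest endothelial sum (7430 CPM). The endothelial sum of library 6, in contrast, was 4837 CPM, below the endfeet median of 5397 CPM. The antibody-secreting cell sum of library 3 was 1168 CPM, below the endfeet median of 1299 CPM. The part of these sums in either level was not tested.

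Other class I and class I-like chains were next examined. Of 19 found in the files, 12 were tested, 9 rose and none fell, with a median log2 fold change of 3.77. Among them were Fcgrt, the neonatal Fc receptor, at 204 ± 26.0 (SD, n = 3) and 1308 ± 394 (SD, n = 6) normalized counts (log2 fold change 2.65), and Hfe, the regulator of iron uptake, at 59.2 ± 2.67 and 867 ± 871 (3.84). Procr, the endothelial protein C receptor, went from 5.398 ± 4.79 to 166 ± 141 (4.94), although endfeet libraries 1 and 6 had only 7.36 and 12.4. Mr1, which presents microbial metabolites, rose least, from 440 ± 25.2 to 990 ± 418 (1.14). The Q-region genes H2-Q4, H2-Q6 and H2-Q7 also passed, from at most 2 counts in any whole astrocyte library to means of 77.0, 57.3 and 33.6 normalized counts in endfeet TRAP. However, H2-Q6 had 0 counts in endfeet library 6, and H2-Q7 had 0 in endfeet libraries 1 and 6. For all of these Q-region genes the fold depends on the few whole astrocyte counts, and windows of 50 bases of H2-D1 also occur in H2-Q6 and H2-Q7.

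Genes of peptide loading and protein folding in the endoplasmic reticulum were higher in 9 of 10, with a median of 2.40. Canx (calnexin), which folds newly made heavy chains, went from 2092 ± 138 to 11072 ± 2795 normalized counts (log2 fold change 2.38, adjusted p = 3.4e-05). Pdia3, the disulfide isomerase of the loading complex, went from 526 ± 70.6 to 4185 ± 2219 (2.97), and Sec61a1, the translocon channel, from 250 ± 39.2 to 2202 ± 1793 (3.11). These genes serve secreted and membrane proteins in general. Also higher were Pdia4 (2.84), Uggt1 (2.50) and the chaperone Hspa5 (2.31).

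The proteasome genes went in both directions. Of the immunoproteasome and activator genes 2 of 6 tested rose and 1 fell, with a median of -0.30. Of all genes tested 20.7% rose and 13.9% fell, and so few genes cannot be told apart from these shares. The 2 that rose, Psmb9 and Psmb8, are catalytic subunits encoded beside Tap1 and Tap2. Psmb9, whose annotated start overlaps that of Tap1 on the opposite strand, went from 60.7 ± 17.4 to 482 ± 349 normalized counts (2.99, adjusted p = 0.041), and Psmb8 from 58.7 ± 6.99 to 273 ± 177 (2.21, adjusted p = 0.045). Psmb9 in endfeet library 1 (4.91) and Psmb8 in library 4 (49.3) were below every whole astrocyte library. Psmb10, also a catalytic subunit of the immunoproteasome, had 356 ± 30.0 and 166 ± 123 and did not pass (-1.11, adjusted p = 0.18). The assembly factor Pomp fell by 1.08 on the log2 scale. Psme1, of the interferon-inducible activator, had 505 and 628 normalized counts and did not pass (0.29). Of the constitutive catalytic subunits, Psmb6 (-2.41) and Psmb7 (-2.53) fell, and Psmb5 did not pass with 20.3 and 11.1 normalized counts.

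Of the transcription machinery of class I genes other than Nlrc5, 4 of 15 rose and 1 fell, near the shares of all genes (20.7% and 13.9%), with a median of -0.06. Irf1, which binds interferon response elements, went from 96.0 ± 7.40 to 453 ± 155 normalized counts (log2 fold change 2.23, adjusted p = 0.0044). The coactivators Ep300 (1.69) and Crebbp (1.26) and the factor Atf1 (1.31) were also higher. Rfxank, the subunit of the RFX complex that binds the X box with Rfx5 and Rfxap, went from 557 ± 34.4 to 76.6 ± 56.0 (-2.82, adjusted p = 0.016). Its partners Rfx5 (-0.40) and Rfxap (-1.08) did not pass.

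Of interferon receptors and signalling genes 7 of 13 tested rose and none fell, with a median of 1.71. Both chains of the type I interferon receptor were higher, Ifnar1 from 251 ± 23.8 to 1924 ± 825 normalized counts (2.93) and Ifnar2 from 142 ± 14.5 to 1629 ± 762 (3.50). The chains of the type II receptor, Ifngr1 (1.66, adjusted p = 0.061) and Ifngr2 (1.21, 0.12), did not pass. Irf7 (3.63) and Tyk2 (2.06) also rose. Jak1 did not pass, at 2789 ± 80.8 and 2300 ± 568 (-0.29, adjusted p = 0.41).

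Interferon-stimulated genes were higher in 18 of 32 tested and lower in none, with a median of 2.87. Gbp4, a guanylate-binding protein, went from at most 7 raw counts in a whole astrocyte library to 1175 ± 373 normalized counts in endfeet TRAP (10.10). Rsad2 (viperin) went from 14.1 ± 5.76 to 585 ± 99.3 (5.36), and Ifi44 (5.66) and Oas2 (5.63) rose as well. The most counted were Irgm2 (3.402), Ifitm3 (3.01) and Gbp7 (2.10). By contrast Ifit2, another classical target, had 294 ± 37.0 and 290 ± 275 and did not pass (-0.01).

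Of class II presentation genes, which professional antigen-presenting cells use, 7 of 8 tested rose and none fell, with a median of 3.69. Cd74, the invariant chain, went from 12.8 ± 2.47 to 1310 ± 752 normalized counts (6.62), with H2-Ab1 (5.27), H2-Aa (4.95), Ifi30 (3.74) and Ctss (3.405) also higher. Markers of microglia and macrophages rose in 10 of 14, as given above. Of 10 receptors that bind class I only Cd160 was tested, and it did not pass (0.78). Cd8b1, Klra7, Klra8, Klrd1, Klrc1 and Klrk1 had 0 counts in all 9 libraries. In all, 56 of 100 tested pathway genes rose, against 20.7% of all genes, and 4 fell, against 13.9%. Some of those that rose, such as H2-Q4, H2-Q6, H2-Q7 and H2-DMb1, had at most 4 counts in any whole astrocyte library. They passed the count filter on their endfeet counts and could hardly be called lower.

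Of the 39 pathway genes named here that passed, 28 also passed with any one library left out. H2-Q7, Procr, Mr1, Psmb9, Psmb8, Pomp, Rfxank, Atf1, Crebbp, Irf7 and Tyk2 did not pass without at least 1 of the whole astrocyte libraries. Mr1, Psmb9, Psmb8, Atf1 and Irf7 also did not pass without at least 1 of the endfeet libraries. In number run B alone Psmb8 (1.46, adjusted p = 0.195), Irf7 (2.47, 0.114), Mr1 (0.91, 0.0799) and Rfxank (-2.79, 0.0517) did not pass, and H2-Q6 and H2-Q7 were not tested. With the number run as a covariate Psmb8, Irf7, Mr1, Rfxank, Psmb9 and Pomp did not pass, with adjusted p from 0.0726 to 0.152.

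**Figure D5:**
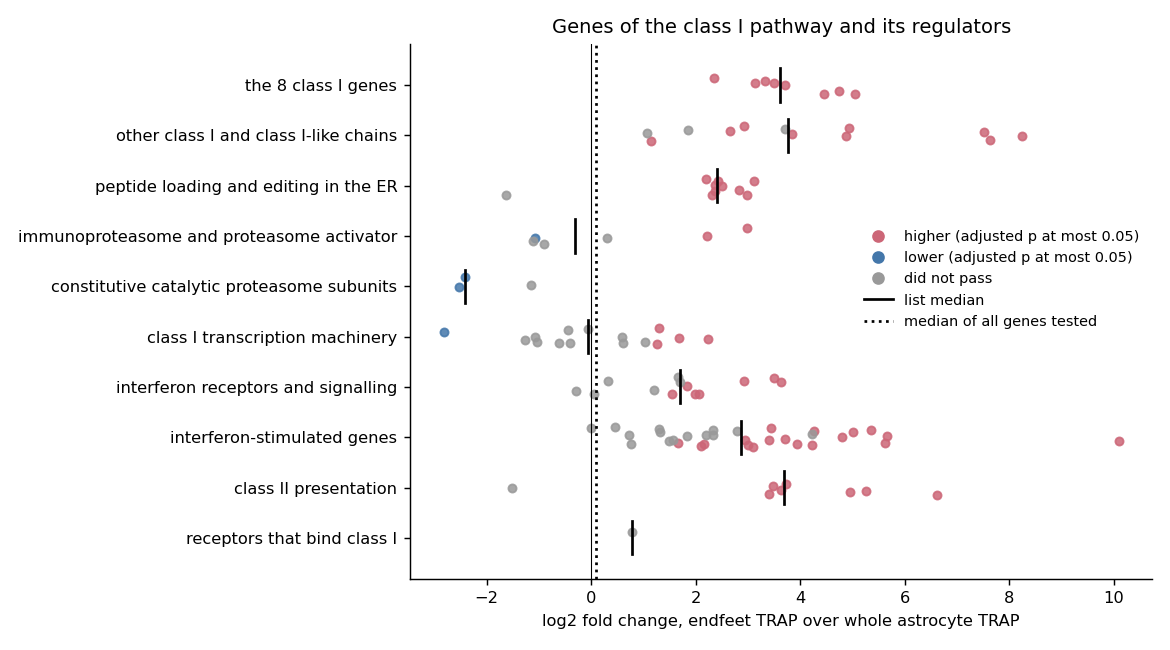
Log2 fold change of each tested gene (points) of the class I genes and 9 lists of the pathway and its regulators, with list medians as black bars and the median of all genes tested dotted. Red points passed as higher, blue as lower and grey did not pass, and the medians run from -2.41 for constitutive proteasome subunits to 3.77 for other class I chains.

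Of the 8 class I genes, H2-K1, Tap1, Tap2 and H2-D1 lie between the first and last gene named H2- on chromosome 17 (chr17:33996017-37483552 on GRCm38), and Tapbp lies just outside. Of the 92 other tested genes there 25 (27.2%) were called higher, against 20.7% of all genes. Of the 16 tested genes named H2- in this region, H2-K1 and H2-D1 included, 11 were called higher.

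For each class I gene the most similar genes were named by the smallest root mean square difference of centred log2(CPM + 1) over the 9 libraries, as a description. H2-K1 was nearest to Ctsa (0.213), Ly6c1 (0.246) and Serpinh1 (0.249), and B2m to Vim (0.201), Nfe2l1 (0.203) and Glg1 (0.207). The 1 added to each CPM shrinks differences of genes with few counts. Ly6c1, with 0 counts in whole astrocyte TRAP, thus came near H2-K1 although its log2 fold change was 10.5 against 3.72. H2-D1 was nearest to Ecm1 (0.289) and Tapbp to Gm21970 (0.211). Tap1 was nearest to Abca1 (0.260), another ABC transporter, Tap2 to Parm1 (0.352) and Erap1 to Lifr (0.286). No gene followed Nlrc5 closely, the nearest being Rhbdf2 at 0.600. Among the 8 themselves the closest pair was H2-K1 and Tapbp (0.331) and the farthest H2-D1 and Nlrc5 (1.67).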

How the data were processed

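The authors amplified polysomal RNA with NuGEN Ovation, sequenced 50 bp reads, aligned them to mm10 with Bowtie, dropped multiply aligned reads and counted with HTSeq. They deposited unnormalized counts for each Ensembl transcript and library. Of 75466 transcripts, 73164 were matched to GENCODE M21, in 22092 genes, and the transcript with the highest CPM summed over libraries stood for its gene. Endfeet and whole astrocyte TRAP were compared with edgeR 4.0.16 (TMM, filterByExpr, glmQLFit, glmQLFTest; R 4.3.3) with Benjamini-Hochberg adjustment over all 14427 genes and a threshold of 0.05, and each SE was derived from the estimate and the F statistic. Normalized counts used DESeq2 1.42.0 size factors. In ratios 0.5 was added to each count. Promoters were those of RefSeq (GRCm38.p6). Tests were tested on simulated data. Alternatives are listed in the closing section. The 8 genes and all lists were chosen with earlier results of these data known. Pathway genes named are up to 4 with the largest called change and 3 with the highest endfeet CPM in each list. Psmb5, Psmb10, Rfx5, Rfxap, Ifngr1, Ifngr2, Ifit2, Cast and the antisense genes were picked outside that rule after their values were seen. Some genes of these lists are counted in them but not reported singly here. Each endfeet library is a pool of 8 mice and each whole astrocyte library is 1 brain. The p-values therefore rest on the spread between libraries of unlike kind and not on that between single mice in both groups.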

Additional observations from a re-analysis of the deposited data

Results flagged for a closer look

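Of 12 sets of values examined for a sample far from the others in the 6 endfeet libraries (8 class I genes and 4 ratios), 1 was picked out. The H2-K1 level in endfeet library 3 was 4856 normalized counts, and its gap to the next library made up 0.702 of the whole range, above Dixon's 95% critical value for 6 samples. Chance picks out about 1 in 20 such sets. Without endfeet library 3 H2-K1 still passed as higher.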

How the results depend on the processing

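H2-K1, H2-D1, B2m, Tap1, Tapbp and Erap1 stayed higher and past the threshold in all 20 alternatives: DESeq2's Wald test, its size factors in edgeR, no filter, at least 10 counts in every library, the number run as a covariate, run B only, the replicate block, limma voom weighted by group, counts summed over transcripts, thinned libraries, a log2 fold change of at least 1, and each library left out. With at least 10 counts in every library Nlrc5 was not tested. With the replicate number as a block Tap2 did not pass (2.93, adjusted p = 0.0919), and the ratios of H2-K1 and H2-D1 to B2m, tested as 3 pairs, had 1.31 and 1.97 (adjusted p = 0.333). The block changed no other call of the 8 genes, with Tap1 at 3.60 and Nlrc5 at 4.14. Same-number libraries deviated together with correlations of only -0.036 to 0.038, so the numbers did not pair them. In run B alone these ratios were 1.505 and 3.28 (adjusted p = 0.1); both designs cannot reach 0.05. Leaving out each library, the mean log2 differences ranged from 1.27 to 1.502 for H2-K1 to B2m, from 2.29 to 2.97 for H2-D1 to B2m, from -1.48 to -0.93 for H2-K1 to H2-D1 and from 0.59 to 1.70 for Tap1 to Tap2. Pathway genes called lower were 4, but 12 with voom, and from 2 to 6 with each library left out, with 2 without any one whole astrocyte library; the cause was not tested. Genes called over the whole table went from 4997 to 8413 with voom and to between 3071 and 3160 without a whole astrocyte library; without an endfeet library they were 4442 to 6022, and the cause was not tested. The share of higher calls among all calls was 59.9%, and 49.8% in run B only and 46.7% with voom. Under voom the median of all genes was -0.29 and that of the 8 class I genes 3.60, with Nlrc5 at 3.99. With thinned libraries all 8 genes passed and their median was 4.45, with Tap1 at 5.28, Tap2 at 4.96 and Nlrc5, now the highest, at 5.30. Tap2, Tap1 and Nlrc5 rest on low counts, each with a library of 12 or fewer.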
